A study of Mus musculus with 8 samples.

Results

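The unfolded protein response and the heat shock response were described here in tumor-associated macrophages (TAMs) by 34 genes out of 53247 in the deposited table. The rule is a list of gene symbols with no threshold on any measured value, but the list was drawn up with earlier results of these data known. They fall into 17 genes of the endoplasmic reticulum (ER) stress response, 6 genes linked to the transcription factor ATF4, and 11 heat shock genes, of which 9 act in the cytosol or nucleus and 2 form the mitochondrial chaperonin. RNA-Seq was run on TAMs, gated by FACS on CD45, CD11b, MHCII and F4/80, from s.c. tumors of Lewis lung carcinoma (LLC), a mouse tumor line, at day 14. The 2 groups were 4 samples from WT mice and 4 from miR-21 null mice (miR-21-/-), all labelled C57/BL6 and 10 weeks old, and all hosts carried the same tumor line. The deletion of miR-21 was global, so every cell of the host lacked it and not macrophages alone, while the implanted LLC cells kept their own miR-21 gene. The title of miR-21-/- replicate 1 combines a pair of numbers, so it may be a pool, and was taken as a single replicate. The labels call the samples biological replicates.

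Unfolded proteins in the ER lumen are sensed by IRE1 (gene Ern1), PERK (Eif2ak3) and ATF6, which act through spliced XBP1, through phosphorylation of eIF2α with translation of ATF4, and through cleaved ATF6, to raise ER chaperones and the machinery that retrieves misfolded proteins for degradation. ATF4 also serves as the effector of amino acid shortage, and drives genes of amino acid synthesis and uptake. In the cytosol and nucleus, unfolded proteins release HSF1, which induces HSP70, HSP90, HSP110 and their J-domain partners. In macrophages, XBP1 and ATF6 serve secretion and inflammatory signalling, and inducible HSP70 genes are also raised by enzymatic digestion and sorting of tissue.

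Levels are given as counts per 1e+06 reads (CPM), as deposited. Fold changes are miR-21-/- minus WT on the log2(CPM + 1) scale, from a limma fit over the 13850 genes that passed a filter on low values, with Benjamini-Hochberg adjusted p-values over all of them. A gene was called when its adjusted p was at or under 0.005 and its fold change was over 1.5. Depth, estimated from the smallest steps between values, was 20.2 to 33.4 in units of 1e+06 reads. The targeted gene, Mir21a, was listed at 0.0001 CPM, the floor of the table, in all 8 samples, so these mRNA libraries give no check of the genotype labels by it. Across genes, samples of the same genotype had Pearson correlations of log2 values from 0.988 to 0.995, and samples of different genotypes from 0.970 to 0.981. All 8 macrophage markers were detected in all samples, and their sum was 7393 to 8390 CPM in WT TAMs and 6584 to 7947 CPM in miR-21-/- TAMs.

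The mature miRNA missing from the miR-21-/- mice is printed with its seed, bases 2 to 8, in capitals, since the members were searched for sites of it. It is encoded at chr11:86584120-86584141 on the minus strand (RefSeq, GRCm38.p6).
mmu-miR-21a-5p: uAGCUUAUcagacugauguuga
Taking the 3′ UTR of the longest annotated form, a site for this seed of 7 or 8 bases was found in 4 of the 34 members (11.8%), against 13.0% of 11526 tested genes with a 3′ UTR. A 7-base site was a match to bases 2 to 8, or to bases 2 to 7 followed by an A. An 8-base site was a match to bases 2 to 8 followed by an A. An 8-base site was found in Dnaja1 alone (2.94% of members, against 2.30% of the tested genes), while Atf6, Sel1l and Dnajb1 held a 7-base site. A match is a description of the sequence, and neither Herpud1 nor Hsph1, the members with the lowest fold changes, held one.

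Promoter sequence was at hand for 27 of the 34 members, as windows from 250 bases before to 50 bases after the annotated start (RefSeq, GRCm38.p6), and was searched on both strands for response elements of the pathways. The ER stress element (CCAAT, 9 bases of any kind, CCACG) was in 0.119% of all 32851 promoters and in 5 members, Hspa5, Hsp90b1, Dnajc3, Pdia6 and Creld2. The ER stress element II (ATTGG, 1 base of any kind, CCACG), added after values were seen, was in 0.0365% of promoters and in Herpud1. The ATF4 composite element (TGATGNAA) was in 3.97% of promoters and in Herpud1, Trib3, Asns and Chac1. The heat shock element, taken as GAA, TTC and GAA or TTC, GAA and TTC with 2 bases of any kind between units, was in 0.603% of promoters and in Hsph1, Hspd1 and Hspe1. The unfolded protein response element (TGACGTGG) was in 0.676% of promoters and in no member with a promoter sequence. The windows below show the matches, in capitals, of genes that carry the results, each read 5′ to 3′ on the strand of its gene.
Hspa5, ER stress element, chr2:34772005-34772063, plus strand: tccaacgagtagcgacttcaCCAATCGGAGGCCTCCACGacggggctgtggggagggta
Pdia6, ER stress element, chr12:17266471-17266529, plus strand: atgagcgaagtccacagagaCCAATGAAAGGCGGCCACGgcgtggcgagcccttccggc
Creld2, ER stress element, chr15:88819500-88819558, plus strand: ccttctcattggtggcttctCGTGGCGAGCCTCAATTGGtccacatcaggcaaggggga
Herpud1, ER stress element II, chr8:94386357-94386407, plus strand: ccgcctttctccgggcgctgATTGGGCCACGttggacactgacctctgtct
Herpud1, ATF4 composite element, chr8:94386297-94386344, plus strand: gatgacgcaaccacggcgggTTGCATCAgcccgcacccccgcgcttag
Asns, ATF4 composite element, chr6:7693210-7693252, minus strand: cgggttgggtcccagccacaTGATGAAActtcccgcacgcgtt
Hspd1, heat shock element, chr1:55088039-55088096, minus strand: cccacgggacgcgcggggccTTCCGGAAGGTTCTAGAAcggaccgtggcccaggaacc
Hsph1, heat shock element, chr5:149636280-149636308, minus strand: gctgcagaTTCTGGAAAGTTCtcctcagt
Creld2 carries its ER stress element, and Herpud1 its ATF4 composite element, on the opposite strand, as the capitals show. The Hspd1 window is also the window of Hspe1, which is transcribed the other way from the same promoter region. The Hsph1 match lies past both annotated starts of that gene. The genes with an ER stress element did not share the sign of their fold change, as the values of Pdia6 and Creld2 below show.

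Of the 34 members, 33 passed the filter and were tested, and Chac1 was too low. Herpud1 and Hsph1 were called, both lower in miR-21-/- TAMs, which is 6.06% of the tested members, against 7.12% of all tested genes called in either direction and 4.23% called lower. With an adjusted p at or under 0.05 and no fold limit, 13 members were lower (39.4%) and none was higher, against 26.5% lower and 9.49% higher among all tested genes. At an unadjusted p under 0.05 in limma, 17 members (51.5%) were past that limit in either direction, against 46.4% of all tested genes. The groups did not overlap, with miR-21-/- lower, for 11 members and, with miR-21-/- higher, for none, against 25.7% and 9.44% of all tested genes. By class, 3 of 17 ER stress genes, 1 of 5 tested ATF4-linked genes and 9 of 11 heat shock genes (81.8%) were lower at an adjusted p of 0.05. The median log2 fold change was -0.10 for the ER stress genes, -0.059 for the ATF4-linked genes and -0.37 for the heat shock genes, against -0.10 for all tested genes. Without miR-21-/- replicate 1 the ER stress median was -0.05. The ATF4-linked median, over 5 genes, was -0.01 without WT replicate 3, -0.13 without WT replicate 2 and 0.06 under the median-of-ratios scaling. Of the 13 members lower at 0.05, 7 stayed so in every fit that left out 1 sample (Atf6, Pdia6, Herpud1, Hsp90aa1, Hsph1, Hspd1 and Hspe1), and the other 6 (Asns, Hsf1, Hspa1a, Hspa8, Hsp90ab1 and Dnajb1) lost that limit in 2 to 7 of the 8 fits. The background lay below 0, with 9250 of the 13850 tested genes there, and so did 26 of the 33 members. A median-of-ratios scaling shifted the median of all genes by 0.10, and then 6 members were lower at 0.05, 4 of them heat shock genes, and Manf, Creld2 and Edem1 were higher, against 14.4% and 15.8% of all tested genes.

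**Figure D1:**
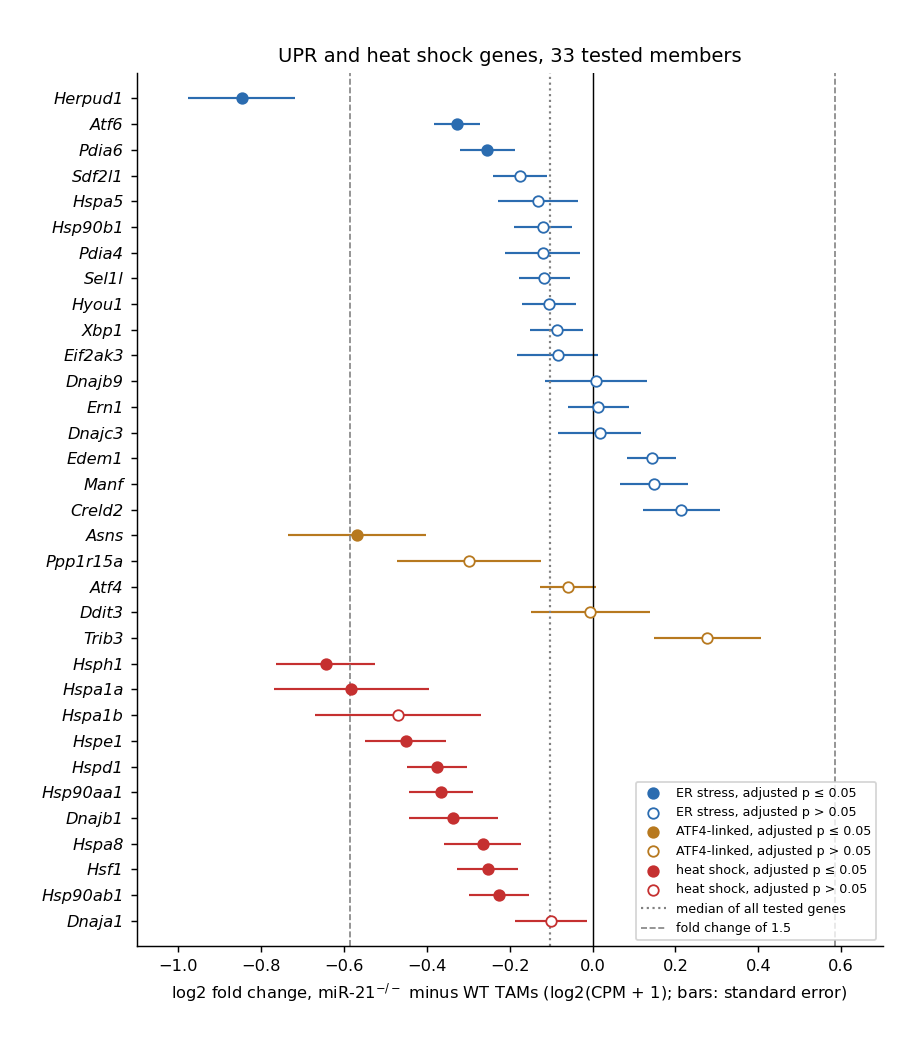
The log2 fold change (horizontal axis, miR-21-/- minus WT, log2(CPM + 1) scale) of each of the 33 tested members, by class, with bars of 1 standard error, filled points for an adjusted p at or under 0.05, a dotted line at the median of all tested genes and dashed lines at a fold change of 1.5. All 11 heat shock genes lie left of 0, from -0.64 (Hsph1) to -0.10 (Dnaja1), while the ER stress genes spread from -0.85 (Herpud1) to 0.21 (Creld2). Of all 13850 tested genes, 9250 lie left of 0.

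Among the sensors and factors of ER stress, Atf6 was lower in miR-21-/- TAMs, and Ern1, Eif2ak3 and Xbp1 did not pass the test. Atf6, the membrane-bound factor that is cut in the Golgi to act on ER chaperone genes (chr1:170704674-170867772), had 214, 218, 204 and 233 CPM in WT TAMs and 168, 168, 174 and 182 CPM in miR-21-/- TAMs. The groups did not overlap, and Atf6 fell by 0.33 ± 0.056 (SE) on the log2 scale (adjusted p = 0.00177), which is under the fold limit. Ern1, which encodes the kinase and RNase that splices Xbp1 mRNA, had 60.8, 61.9, 63.6 and 51.4 CPM in WT TAMs and 63.4, 57.5, 61.9 and 56.8 CPM in miR-21-/- TAMs. These groups overlapped, with a log2 fold change of 0.01 ± 0.074 (adjusted p = 0.896). Eif2ak3, the eIF2α kinase PERK, had 26.7, 34.7, 33.2 and 26.4 CPM in WT TAMs and 25.5, 28.9, 29.4 and 29.5 CPM in miR-21-/- TAMs, with a log2 fold change of -0.08 ± 0.098 (adjusted p = 0.532). Xbp1 ranged from 161 to 178 CPM in WT TAMs and from 148 to 172 CPM in miR-21-/- TAMs (log2 fold change -0.09, adjusted p = 0.317). Gene-level values do not separate spliced from unspliced Xbp1.

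The main ER chaperones overlapped between genotypes. Hspa5, which encodes BiP, the HSP70 of the ER lumen that holds the sensors inactive, had 851, 845, 869 and 914 CPM in WT TAMs and 644, 867, 856 and 827 CPM in miR-21-/- TAMs. Only miR-21-/- replicate 1 stood apart, and the log2 fold change was -0.13 ± 0.096 (adjusted p = 0.309). Hsp90b1, the ER HSP90 paralog GRP94, ranged from 753 to 853 CPM in WT TAMs and from 663 to 764 CPM in miR-21-/- TAMs (log2 fold change -0.12, adjusted p = 0.204). Hyou1, a nucleotide exchange factor for BiP, had means of 166 ± 10.8 (SD, n = 4) and 154 ± 9.57 CPM (n = 4), with a log2 fold change of -0.10 and a limma adjusted p of 0.235. The BiP cochaperones Dnajb9 and Dnajc3 lay near 0, at log2 fold changes of 0.01 and 0.02. Sdf2l1, a binding partner of the ER J-domain protein ERdj3, had no overlap between groups (59.1 to 61.4 CPM in WT samples and 46.9 to 57.0 CPM in miR-21-/- TAMs), but its adjusted p was 0.0587.

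Of the protein disulfide isomerases and secreted ER stress factors, Pdia6 was lower and no other passed the test. Pdia6, a disulfide isomerase that binds BiP and dampens IRE1, had 308, 287, 276 and 277 CPM in WT TAMs and 218, 249.5, 258 and 238 CPM in miR-21-/- TAMs. The groups did not overlap, and it was 16.1% lower on average (log2 fold change -0.25 ± 0.066, adjusted p = 0.0138). Under the median-of-ratios scaling Pdia6 had a log2 fold change of -0.14 and no longer passed 0.05 (limma adjusted p = 0.15). Its relative Pdia4 overlapped, from 167 to 212 CPM in WT TAMs and from 153 to 190 CPM in miR-21-/- TAMs (adjusted p = 0.323). Manf, a secreted ER stress factor, had 69.1, 70.4, 65.9 and 74.2 CPM in WT TAMs and 64.9, 83.1, 82.1 and 81.6 CPM in miR-21-/- TAMs. The other 3 miR-21-/- samples lay above all WT samples and replicate 1 below them, so that the log2 fold change of 0.15 ± 0.082 had an adjusted p of 0.182. Creld2, a secreted disulfide isomerase-like factor, had 24.6, 22.6, 23.3 and 21.0 CPM in WT TAMs and 22.2, 30.0, 28.5 and 26.7 CPM in miR-21-/- TAMs, with replicate 1 of the latter inside the WT range and the other 3 above it (log2 fold change 0.21 ± 0.092, adjusted p = 0.0947). Without miR-21-/- replicate 1, Manf, Creld2 and Edem1 were higher at an adjusted p of 0.05, where 9.34% of all tested genes were. The Manf row overlaps the genes Rbm15b and Dcaf1, whose reads could be shared with it.

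In ER-associated degradation, Herpud1 was the member with the lowest fold change of all 33. Herpud1, a small ER membrane protein that organises the HRD1 retrotranslocation complex (chr8:94386438-94395378), had 45.2, 57.8, 61.0 and 63.8 CPM in WT TAMs and 24.9, 29.8, 35.5 and 34.8 CPM in miR-21-/- TAMs. All WT samples lay above all miR-21-/- samples, and the mean of the miR-21-/- samples was 45.1% lower. It fell by 0.85 ± 0.13 (SE) on the log2 scale, an adjusted p of 0.00102 by limma. It was called under each alternative tried but the fit with no filter on low values, where the adjusted p was 0.00768. Edem1, which takes glycoproteins that fail to fold out of the ER, had a value of the opposite sign, with 259, 248, 256 and 238 CPM in WT TAMs and 256, 292, 268 and 290 CPM in miR-21-/- TAMs (log2 fold change 0.14 ± 0.059, adjusted p = 0.0847). Sel1l, the adaptor of HRD1, ranged from 136 to 157 CPM in WT TAMs and from 128 to 143 CPM in miR-21-/- TAMs (log2 fold change -0.12, adjusted p = 0.17).

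Of the 5 tested ATF4-linked members, 4 had log2 fold changes below 0 and 1, Trib3, above, and only Asns passed an adjusted p of 0.05. Of all 13850 tested genes, 9250 were below 0. Atf4 mRNA ranged from 121 to 149 CPM in WT TAMs and from 127 to 135 CPM in miR-21-/- TAMs (log2 fold change -0.06, adjusted p = 0.523). Ddit3, which encodes CHOP, the factor of terminal ER stress, ranged from 11.7 to 17.7 CPM in WT TAMs and from 13.2 to 19.3 CPM in miR-21-/- TAMs, with a log2 fold change of -0.005 and an adjusted p of 0.981. Its row overlaps the tRNA synthetase gene Mars, whose reads could be shared with it. Asns, asparagine synthetase (chr6:7675169-7693255), had 7.26, 10.3, 7.27 and 10.9 CPM in WT TAMs and 5.49, 7.43, 5.57 and 4.27 CPM in miR-21-/- TAMs. Its groups overlapped through miR-21-/- replicate 2, and it fell by 0.57 ± 0.17 (adjusted p = 0.0243). Trib3, a pseudokinase that feeds back on ATF4, had 1.91, 1.21, 1.34 and 1.99 CPM in WT TAMs and 1.87, 2.43, 2.00 and 2.28 CPM in miR-21-/- TAMs, the lowest level of the tested members (log2 fold change 0.28 ± 0.13, adjusted p = 0.119). Ppp1r15a, the GADD34 subunit that returns eIF2α to its active state, ranged from 119 to 219 CPM in WT TAMs and from 126 to 159 CPM in miR-21-/- TAMs (log2 fold change -0.30, adjusted p = 0.206). Chac1, a glutathione-degrading enzyme below the filter, had means of 0.823 ± 0.28 CPM (SD, n = 4) and 0.719 ± 0.27 CPM (n = 4), with a two-sided exact permutation p of 0.6, where the smallest p the design allows is 0.0286.

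The other ATF4-linked genes on the list set for this pathway, 28 of 30 of them tested, held 2 genes called higher and 1 called lower (10.7% called, against 7.12% of all tested genes). At an adjusted p of 0.05, 4 were higher (14.3%, against 9.49% of all tested genes) and 7 lower (25.0%, against 26.5%), and the median log2 fold change was -0.18. Slc7a11, the cystine importer of the xc- system, had the highest fold change (1.55 ± 0.15, adjusted p = 7.75e-05), from 43.4 to 68.8 CPM in WT TAMs and from 128 to 187 CPM in miR-21-/- TAMs. Psat1, an enzyme of serine synthesis, was the other gene called higher (log2 fold change 1.00 ± 0.11, adjusted p = 0.000162), from 34.5 to 43.5 CPM in WT TAMs and from 65.6 to 89.0 CPM in miR-21-/- TAMs. Ddit4, the mTORC1 inhibitor REDD1, was called lower and had the lowest value, -1.48 ± 0.30 (adjusted p = 0.00444), from 55.6 to 148 CPM in WT TAMs and from 21.0 to 43.6 CPM in miR-21-/- TAMs. None of the 3 overlapped between genotypes. Asns and Psat1, both enzymes of amino acid synthesis and both on ATF4-linked lists, thus lay on opposite sides of 0.

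**Figure D2:**
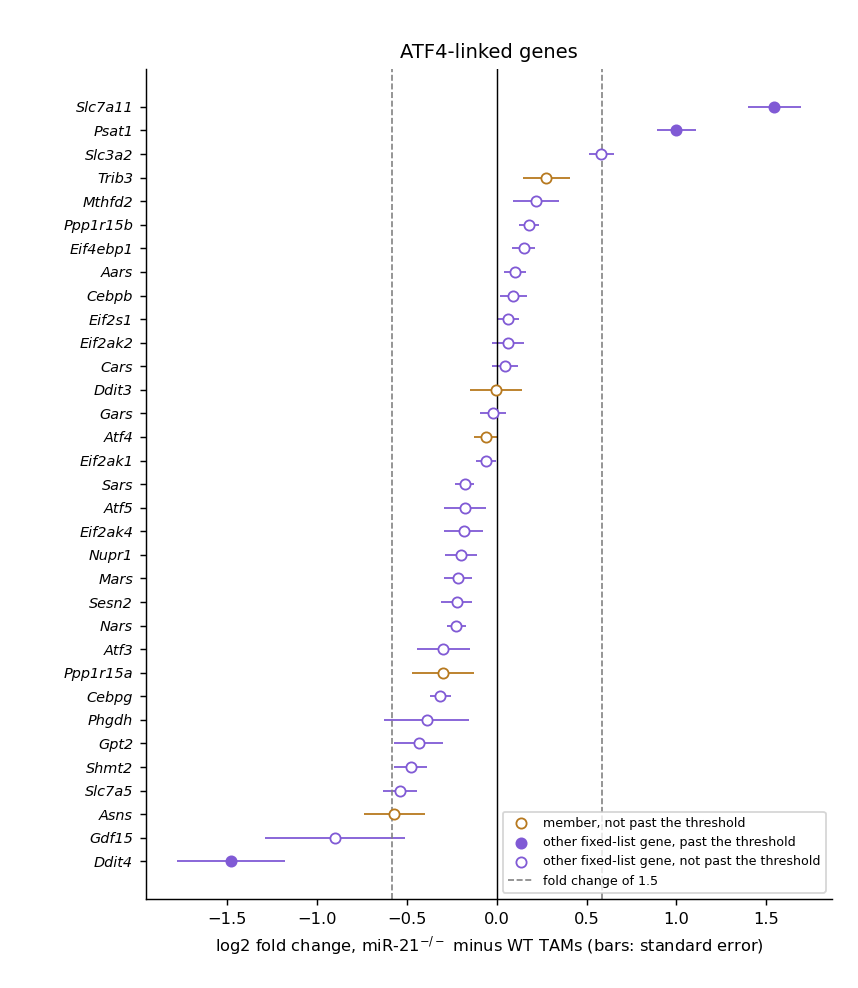
The log2 fold change (horizontal axis, miR-21-/- minus WT) with bars of 1 standard error for each tested member linked to ATF4 and each other tested gene of the ATF4-linked list, filled where past the threshold, with dashed lines at a fold change of 1.5. Slc7a11 (1.55) and Psat1 (1.00) lie at the upper end and Ddit4 (-1.48) at the lower end, and the members lie between -0.57 (Asns) and 0.28 (Trib3).

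The heat shock genes were the class with the most members lower. Hsph1, the HSP110 nucleotide exchange factor of cytosolic HSP70 (chr5:149614287-149636377), had 61.4, 67.0, 62.5 and 73.6 CPM in WT TAMs and 33.4, 39.3, 51.7 and 45.0 CPM in miR-21-/- TAMs. All WT samples lay above all miR-21-/- samples, and it fell by 0.64 ± 0.12 (adjusted p = 0.00261), with a mean 35.9% lower. Of the fits that left out 1 sample, only the one without miR-21-/- replicate 3 kept the call of Hsph1, and in all of them it stayed below an adjusted p of 0.05. Hsph1 also lost the call with a pseudocount of 10, with no filter on low values, with quantile normalization, with the median of ratios and without the intensity trend. The largest adjusted p of Hsph1 under any alternative was 0.0149.

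The HSP90 genes, the constitutive HSP70 and Hsf1 were lower by small amounts, and of these only Hsp90aa1 stayed lower at an adjusted p of 0.05 under the median-of-ratios scaling. Hsp90aa1, the stress-inducible cytosolic HSP90, ranged from 323 to 374 CPM in WT TAMs and from 238 to 294 CPM in miR-21-/- TAMs, without overlap (log2 fold change -0.37 ± 0.076, adjusted p = 0.00502). Hsp90ab1, its constitutive paralog and per length the member with the highest level, ranged from 1184 to 1275 CPM in WT TAMs and from 961 to 1127 CPM in miR-21-/- TAMs, also without overlap (log2 fold change -0.23, adjusted p = 0.0339). Hspa8, the constitutive HSC70, ranged from 911 to 1013 CPM in WT TAMs and from 654 to 865 CPM in miR-21-/- TAMs (log2 fold change -0.26, adjusted p = 0.0479). Hsf1, the master factor of the response, had means of 26.3 ± 2.2 (SD, n = 4) in WT TAMs and 21.9 ± 1.4 CPM in miR-21-/- TAMs (n = 4), without overlap, and fell by 0.25 on the log2 scale (limma adjusted p = 0.0237). Under the median-of-ratios scaling the log2 fold change was -0.11 for Hsp90ab1 (adjusted p = 0.272), -0.15 for Hspa8 (adjusted p = 0.256) and -0.14 for Hsf1 (adjusted p = 0.165). HSF1 is regulated mainly by its protein state, which mRNA does not show.

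The J-domain partners of HSP70 differed in their values. Dnajb1 ranged from 42.4 to 64.7 CPM in WT TAMs and from 39.3 to 43.1 CPM in miR-21-/- TAMs, with overlap (log2 fold change -0.34 ± 0.11, adjusted p = 0.0339). Dnaja1, the farnesylated DNAJA1, had 63.8, 62.1, 63.8 and 74.3 CPM in WT TAMs and 54.1, 59.0, 70.8 and 62.7 CPM in miR-21-/- TAMs, and was the heat shock member closest to 0 (log2 fold change -0.10 ± 0.087, adjusted p = 0.402).

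The inducible HSP70 genes Hspa1a and Hspa1b each had 1 low WT sample. Hspa1a had 626, 367, 683 and 641 CPM in WT TAMs and 454, 330, 401 and 332 CPM in miR-21-/- TAMs. WT replicate 2 lay inside the miR-21-/- range, while the other 3 WT samples lay above it, and Hspa1a fell by 0.58 ± 0.19 (adjusted p = 0.0349). Hspa1b had 773, 445, 839 and 830 CPM in WT TAMs and 619, 423, 553 and 450 CPM in miR-21-/- TAMs, a log2 fold change of -0.47 ± 0.20 (adjusted p = 0.0927). The genes are near-identical copies 9950 bases apart on chromosome 17, so reads can be assigned to either, and their ratio, Hspa1a over Hspa1b, lay between 0.725 and 0.824 in all samples. Summed, the pair had 1301 ± 330 CPM (SD, n = 4) in WT TAMs and 890 ± 150 CPM (n = 4) in miR-21-/- TAMs, a log2 fold change of -0.52 ± 0.20 (limma adjusted p = 0.0635). Without WT replicate 2, Hspa1a alone was called, at -0.79 (adjusted p = 0.00173), and the sum was called too, at -0.73 (adjusted p = 0.00375). Without any single other sample but miR-21-/- replicate 1, the adjusted p of Hspa1a was above 0.05, from 0.0573 to 0.0949.

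The low values of WT replicate 2 went with a wider set of genes. Immediate early genes, which dissociation and sorting raise quickly, were set as a list of 14. WT replicate 2 was the lowest of the WT samples in all 14, and in 7 of the 11 heat shock members. In the miR-21-/- group, replicate 1 was the highest in 12 of these 14. It was the lowest in 7 of the 11 heat shock members and in 16 of the 17 ER stress members. In 3 heat shock members, Hspa1a, Hspa1b and Dnajb1, it was the highest. Such counts were not made over all tested genes, so whether they are particular to these lists was not tested. The immediate early genes had a median log2 fold change of -0.22, with 5 lower (35.7%, against 26.5% of all tested genes) and none higher at an adjusted p of 0.05 (limma), 6 at an unadjusted p under 0.05 (42.9%, against 46.4%) and none called. Fosb had the lowest value, -0.96 ± 0.33 (adjusted p = 0.047), and Klf6 the highest, 0.21 ± 0.08 (adjusted p = 0.0672). The part of sample handling in the heat shock values was not tested. Without WT replicate 2, 8 heat shock members were lower at an adjusted p of 0.05 (18.8% of all tested genes), and without miR-21-/- replicate 1, 6 were (22.7%). The count fell further, from 9 to 4, without WT replicate 3 (20.53% of all tested genes) or miR-21-/- replicate 2 (21.1%), and to 5 without WT replicate 4 (25.9%). It was 6 without each of the other samples.

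**Figure D3:**
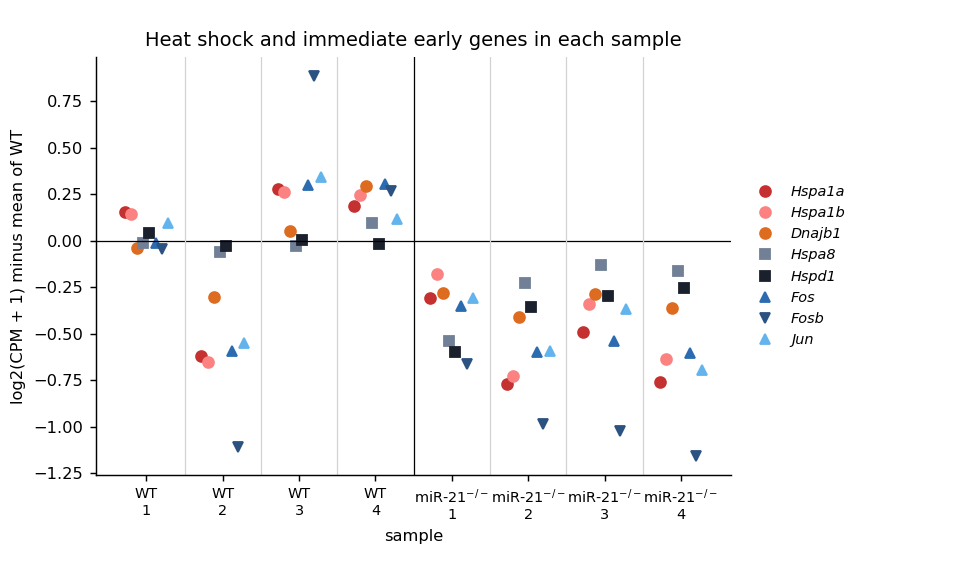
The log2(CPM + 1) of 5 heat shock genes and 3 immediate early genes in each sample, minus the mean of the 4 WT samples (vertical axis), with the samples along the horizontal axis. Fos and Jun were picked for the plot after their values were seen. The 5 heat shock genes drawn are all among the 7 of 11 heat shock members in which WT replicate 2 was lowest. In Hsf1, Hsp90aa1, Hsp90ab1 and Hsph1, not drawn, another WT sample was lowest. For the 8 genes drawn, WT replicate 2 is thus the lowest WT sample. The gap is wide for Hspa1a, Hspa1b, Fos, Fosb and Jun and small for Hspa8 and Hspd1.

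The mitochondrial chaperonin genes were lower together. Hspd1, which encodes HSP60 (chr1:55077835-55088244), had 126, 119.5, 122 and 121 CPM in WT TAMs and 80.3, 95.3, 99.1 and 102 CPM in miR-21-/- TAMs. The WT samples spanned a narrow range and lay above all miR-21-/- samples, and Hspd1 fell by 0.38 ± 0.073 (adjusted p = 0.00346). Hspe1, its cochaperonin HSP10 (chr1:55088132-55091308), had 43.2, 35.0, 36.9 and 46.4 CPM in WT TAMs and 25.3, 30.1, 30.6 and 30.7 CPM in miR-21-/- TAMs. It also had no overlap between groups, and fell by 0.45 ± 0.098 (adjusted p = 0.0061). The 2 genes lie head to head on opposite strands and overlap by 113 bases, so that unstranded counts there can be shared between them. Neither passed the fold limit of 1.5.

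**Figure D4:**
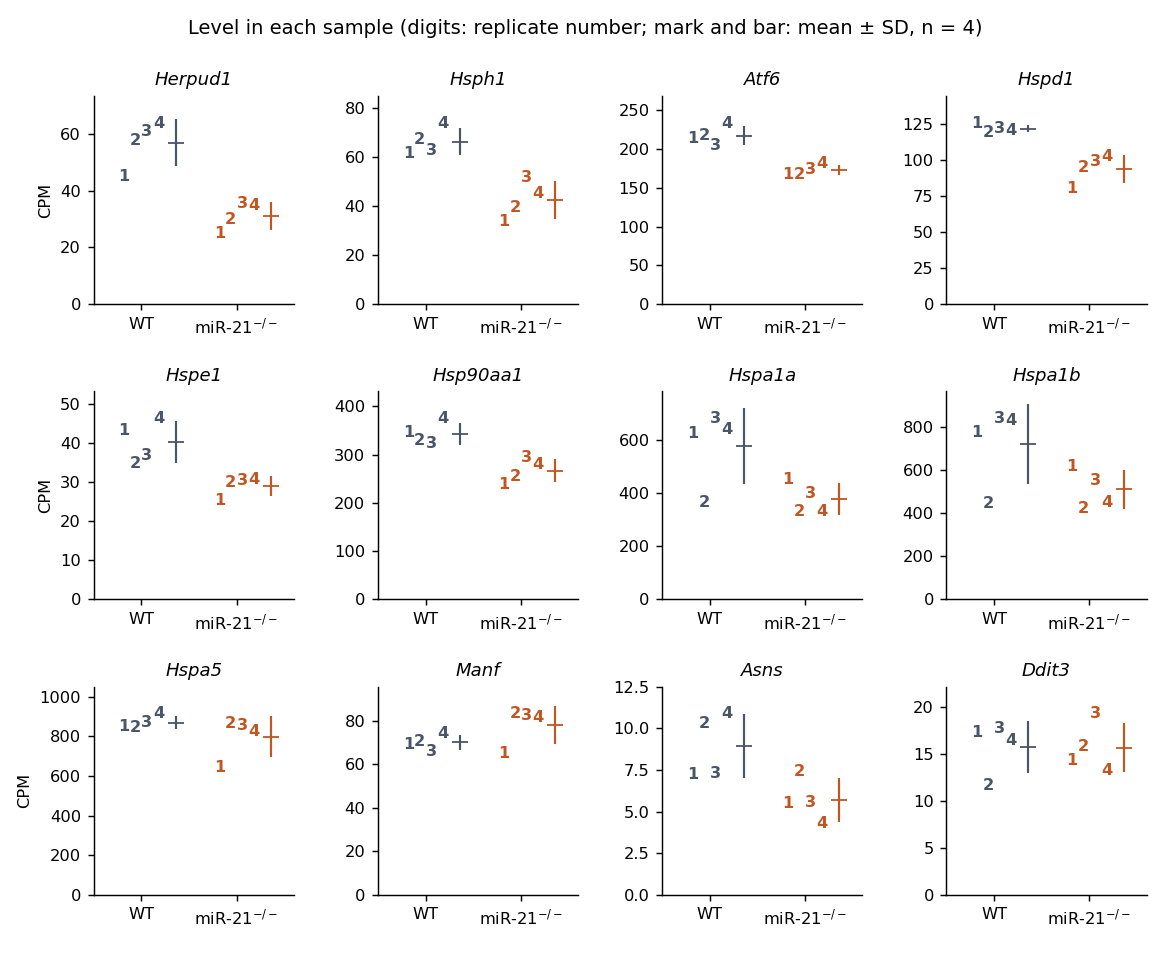
CPM (vertical axes, from 0) of 12 members in each sample, with each sample drawn as its replicate number and the mean ± SD (n = 4) beside each genotype. Herpud1, Hsph1, Atf6, Hspd1, Hspe1 and Hsp90aa1 show no overlap between WT and miR-21-/- TAMs, while WT replicate 2 falls among the miR-21-/- samples for Hspa1a and Hspa1b and miR-21-/- replicate 1 lies below the others for Hspa5 and Manf.

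**Figure D5:**
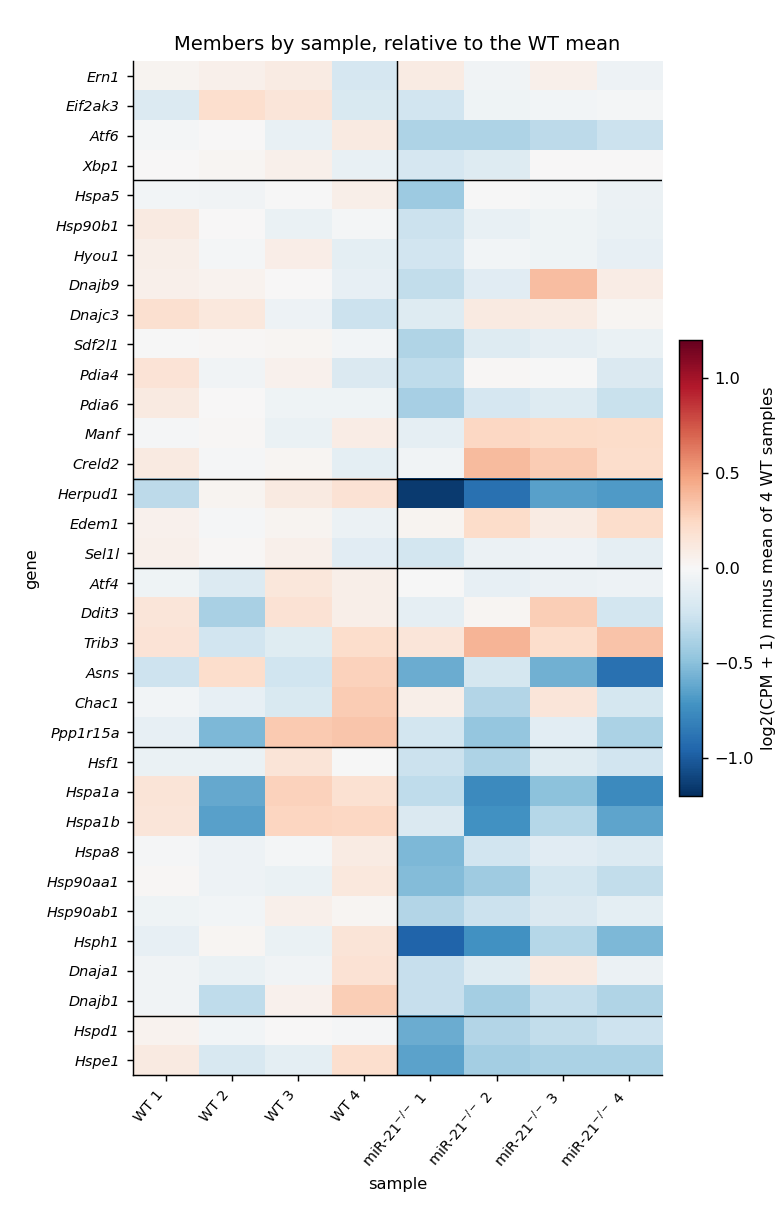
Each of the 34 members (rows, by class) in each of the 8 samples (columns), as log2(CPM + 1) minus the mean of the 4 WT samples, blue where lower and red where higher. The miR-21-/- columns are blue across the heat shock and chaperonin rows, apart from Dnaja1 in replicate 3. Herpud1 is the lowest member in miR-21-/- replicates 1 to 3 and Asns in replicate 4, while Manf, Creld2 and Edem1 are red in miR-21-/- replicates 2 to 4.

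In the wider chaperone lists, the share of genes lower was near that of all tested genes for the cytosol and under it for the ER. Of 30 other cytosolic chaperone and heat shock genes tested, 9 were lower (30.0%, against 26.5% of all tested genes) and 2 higher (6.67%, against 9.49%) at an adjusted p of 0.05 (median log2 fold change -0.12). Fkbp4, an immunophilin cochaperone of HSP90, was called lower, from 50.1 to 53.6 CPM in WT TAMs and from 30.7 to 34.4 CPM in miR-21-/- TAMs (log2 fold change -0.67 ± 0.05, adjusted p = 3.25e-05). Hspa2, an HSP70 relative, had the highest value of this list (0.42, adjusted p = 0.00866) at 2.53 to 3.39 CPM in WT samples and 3.99 to 4.53 CPM in miR-21-/- TAMs. Of 26 other ER folding and degradation genes tested, 2 were lower (7.69%) and 3 higher (11.5%), with a median of -0.02. Mbtps1, the protease that makes the first cut in ATF6, had the lowest value of that list (-0.33, adjusted p = 0.00296), from 72.3 to 86.9 CPM in WT samples and from 60.3 to 63.9 CPM in miR-21-/- TAMs, and Hspa13 had the highest (0.31, adjusted p = 0.0326).

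Markers of other cells that the sort could hold were detected, and some moved with genotype. The summed level of 6 fibroblast markers was 60.7 to 137 CPM in WT samples and 10.1 to 44.1 CPM in miR-21-/- TAMs, with 3 of 5 tested, Col1a1, Col3a1 and Pdgfra, called lower, against 4.23% of all tested genes. The 7 neutrophil markers summed to 716 to 1099 CPM in WT samples and 531 to 699 CPM in miR-21-/- TAMs, with none called and 4 of 5 tested lower at an adjusted p of 0.05, against 26.5% of all tested genes. The 5 epithelial markers, which stand for LLC cells, summed to 18.8 to 24.8 CPM in WT samples and 12.7 to 17.9 CPM in miR-21-/- TAMs, and 2 of them were at the floor in some samples. The sums of the T and NK cell, B and plasma cell, dendritic cell and endothelial lists overlapped between genotypes, but single genes of the first 3 did not. Cd4, a coreceptor of helper T cells, was called lower, from 5.93 to 30.0 CPM in WT samples and from 0.845 to 3.40 CPM in miR-21-/- samples (log2 fold change -2.35, adjusted p = 0.00206), and Cd79b, a subunit of the B cell receptor, was called lower too (-1.45, adjusted p = 0.000375). Cd8a (1.28, adjusted p = 0.00804) and the dendritic cell receptor Clec9a (1.26, adjusted p = 0.00532) were higher without overlap and not past the threshold. The dendritic cell markers did not move together. Of the 6 tested, 1 was higher and 1 lower at an adjusted p of 0.05, against 9.49% and 26.5% of all tested genes. The lower one was Cd209a (-1.28, limma adjusted p = 0.0187), with overlap between genotypes. Of the 8 macrophage markers, 2 were lower at an adjusted p of 0.05, a share near the 26.5% of all tested genes, among them Adgre1, the gene of the gating marker F4/80 (-0.38, adjusted p = 0.0014), and 1, the Fc receptor gene Fcgr1, was called higher (0.75, adjusted p = 0.000561). No marker was at the floor in all samples. In such bulk samples, fewer cells of a type and less RNA per cell cannot be told apart, and the part of these markers in the values of the members was not tested.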

How the data were processed

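The authors deposited 1 table of normalized CPM values, made with STAR and Partek 7.0 on mm10 according to the submitters' processing notes. Each value was raised by 0.0001. The counting rule and strand are not given in the sources used here. Starts of 33 of the 34 members match GENCODE vM21. Of low values, 73.7% to 74.6% were whole multiples of 1 read (tolerance 0.02 reads), so whole reads were not recovered and no count test was run. Depth was 20.2 to 33.4 in units of 1e+06 reads, and 3 reads were worth 0.0899 to 0.148 CPM.

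A linear model of log2(CPM + 1) was run in R 4.3.3 with limma 3.58.1 (lmFit, then trended eBayes). It covered 13850 genes whose mean share of the table reached 1 per 1e+06. Genes were called at an adjusted p at or under 0.005 (Benjamini-Hochberg) and a fold change over 1.5, the limits of the study. The limit of 0.05 without a fold limit was chosen after seeing the data. Chac1, below the filter, was compared by an exact permutation test, two-sided. In a test on simulated data for this comparison over 13850 genes, 93% of 100 genes with a log2 change of 1 and 100% of 100 with a log2 change of 2 were called.

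All members are reported. Every sample value is given for members past the threshold, for the highest and lowest of each class and for members with a sample far from its group. Of the other pathway lists and the immediate early genes, those past the threshold and the highest and lowest are named. Of the cell marker lists, those past the threshold are named, and Cd8a and Clec9a, the highest of their lists, and Cd209a, the lowest of the dendritic cell list. Members and lists were chosen with earlier results of these data known. Alternatives were pseudocounts of 0.1 and 10, no filter and a filter of 5, quantile normalization, the median of ratios, no trend, a replicate block and leaving out each sample. Protein sequences were not used here. Figures were drawn with matplotlib 3.10.9 in Python 3.11.15.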

Additional observations from a re-analysis of the deposited data

Results flagged for a closer look

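Each member was tested in each genotype for a sample far from the other 3 (gap to its nearest neighbour, over the whole range, above the 95% critical value of Dixon for 4 samples), 68 tests of which chance flags about 1 in 20. Of these, 7 were past the limit. In miR-21-/- replicate 1, Eif2ak3 was at 25.5 CPM (the others from 28.9 to 29.5), Hspa5 at 644 CPM (827 to 867), Manf at 64.9 CPM (81.6 to 83.1) and Hspe1 at 25.3 CPM (30.1 to 30.7). In WT replicate 2, Hspa1a was at 367 CPM (626 to 683) and Hspa1b at 445 CPM (773 to 839). In WT replicate 4, Dnaja1 was at 74.3 CPM (62.1 to 63.8). The values of miR-21-/- replicate 1 were low for 4 genes, and those of WT replicate 2 for the near-identical pair.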

How the results depend on the processing

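In the limma fit reported, 2 members were called. This was 1 with a pseudocount of 10, with quantile normalization, with the median of ratios and without the trend, 0 with no filter, and 1 to 2 leaving out 1 sample. Without a fold limit it was 13 at an adjusted p of 0.05 and 4 at 0.005 (Herpud1, Hsph1, Atf6 and Hspd1). The 13 members lower at 0.05 became 8 with no filter, 6 by the median of ratios, and 8 to 12 leaving out 1 sample, the lowest without WT replicate 3 or miR-21-/- replicate 2. Of all tested genes 26.5% were lower at 0.05 in the fit reported, 9.62% with no filter, 14.4% by the median of ratios and 18.8% to 25.9% leaving out 1 sample. By the median of ratios Pdia6, Asns, Hsf1, Hspa1a, Hspa8, Hsp90ab1 and Dnajb1 were no longer lower at 0.05. By the median of ratios the median log2 fold change was 0.012 for ER stress genes and -0.25 for heat shock genes (0.058 for ATF4-linked genes, and -0.18 for these with the filter at 5), and the share of calls that were higher went from 40.6% to 60.3%. Signs turned for Eif2ak3 (0.0033 by quantiles, 0.029 by the median of ratios), Ddit3 (0.12 and 0.11) and, by the median of ratios, Xbp1 (0.030), Hyou1 (0.012), Sel1l (0.00071), Atf4 (0.058) and Dnaja1 (0.016). None of these had an adjusted p under 0.05 in the fit reported. Leaving out 1 sample, log2 fold changes ran from -0.053 to 0.048 for Ern1, -0.11 to 0.11 for Dnajb9, -0.069 to 0.081 for Dnajc3 and -0.13 to 0.068 for Ddit3. Over the members and these settings, 489 values kept direction and side of the threshold, 24 changed sign, 13 lost a call and 1 gained one, Hspa1a without WT replicate 2. The cause was not tested. With the replicate number as a block, 2 members were called and 14 were lower at 0.05 (23.9% of all tested genes), Hspa1b being added. Same-numbered samples had correlated deviations of 0.083, -0.11, -0.14 and 0.22, so the numbers do not pair the samples, and not every sample correlated best with its own number.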

Other observations

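Of 10 other mitochondrial chaperones and proteases, all tested, 3 were lower (30.0%, against 26.5% of all tested genes) and none higher at an adjusted p of 0.05 (limma), 7 were under an unadjusted p of 0.05 (70%, against 46.4%), and the median log2 fold change was -0.16. Htra2, a protease of the intermembrane space, had the lowest value, -0.40 (adjusted p = 0.00319), from 38.6 to 48.0 CPM in WT samples and from 29.7 to 33.2 CPM in miR-21-/- TAMs, without overlap. Yme1l1, a protease of the inner membrane, had the highest, 0.16.

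Per length (CPM per kb of exons, mean of the 8 samples), the highest members were Hsp90ab1 (379), Hspa1b (220), Hspa8 (203), Hspa5 (197) and Hsp90b1 (189), and the lowest were Chac1 (0.471) and Trib3 (0.883). The cytosolic and ER chaperones thus led the order of levels, and the ATF4 targets Chac1 and Trib3 ended it.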
